A study of Homo sapiens with 3 samples.

Results

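The ZIP proteins, encoded by genes of the SLC39 family, are membrane transporters that move zinc into the cytosol from outside the cell or out of organelles. All probe sets whose only gene symbol was one of 10 ZIP genes were taken (SLC39A1, SLC39A4 to SLC39A11 and SLC39A14), which gave 42 probe sets of the 49395 on the array and 10 of its 18132 genes. They were followed in Caco-2, an established human cell line from a colorectal cancer that takes on enterocyte features when confluent, after depletion of the transcript OCC-1 (C12orf75). A lentiviral hairpin without a target was carried by the control (shCTRL, genotype label control, 1 array). The lines labelled OCC-1 knockdown carried shOCC-1-1 (here line 1, 1 array) or shOCC-1-2 (line 2, 1 array). Every culture had 20% fetal bovine serum, 5 days of puromycin at 1 µg per ml and then 24 hours without it, and the labels do not say whether a line was a clone or a pool, nor that any line was repeated.

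Zinc entry is balanced by the SLC30 (ZnT) transporters, which carry zinc out of the cytosol, and by metallothioneins, which bind it there and are induced by zinc through the transcription factor MTF1. In the intestine, ZIP4 on the apical side of enterocytes takes up dietary zinc, and loss of ZIP4 causes the zinc deficiency disease acrodermatitis enteropathica. Most of the members belong to the LIV-1 subfamily, named after ZIP6, and ZIP8 and ZIP14 of that subfamily also carry iron and manganese.

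Of the 10 members, SLC39A6 (ZIP6) was the only gene called higher after OCC-1 knockdown, at about 1.5-fold on its 2 tested probe sets. SLC39A1 (ZIP1) was the only one called lower, on 2 of its 9 probe sets and by about 1.3-fold. The other 8 members did not pass the test on any probe set. Outside the members, the family gene SLC39A3 was also called lower (log2 difference -0.37, adjusted p = 0.024 in limma over genes). So was 1 probe set of SLC39A13 (-0.35, adjusted p = 0.023 in limma over probe sets). Bulk RNA cannot tell fewer expressing cells from less RNA per cell. Values are intensities on a linear scale as deposited, differences are log2 of a knockdown array minus log2 of the control, and 25 of the 42 probe sets passed a filter on dim signals (mean over the 3 arrays at or above 184, the median of all probe sets). Calls were made by a size rule, which asks that both lines differ from the control by 1.5-fold or more in one direction, and by limma with an adjusted p at or under 0.05 for both lines against the control, adjusted over all 22670 probe sets above the filter. By the size rule 0 of the 25 ZIP probe sets were higher, against 1.41% of all probe sets tested, and 0 were lower, against 0.11%. In limma 2 of the 25 were higher, against 11.3% of all, and 2 were lower, against 3.92%. Without Benjamini-Hochberg adjustment 10 of the 25 had a limma p under 0.05, against 31.4% of all probe sets. With 1 control array, a deviating control cannot be told apart from an effect of the knockdown, and limma's spread comes from the 2 lines alone.

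The arrays themselves had median intensities of 182.5 to 185.5. OCC-1 was at 42.5% of control in line 1 and 32.5% in line 2. Of 10 intestinal epithelial markers on the array, 10 passed the intensity filter, and their summed intensity was 35114 in the control against 37238 in line 1 and 37446 in line 2. Of the fibroblast, leukocyte and endothelial markers 4 of 7, 3 of 6 and 1 of 4 passed it, with summed intensities of 2112, 2322 and 2112 for fibroblasts, 1207, 1552 and 1350 for leukocytes and 663, 608 and 658 for endothelium in the control, line 1 and line 2. Their part in the ZIP values was not tested. The array's 23 background control probe sets, which match no transcript and hold from 3 to 25 G or C bases per probe, differed from control by between 0.06 and -0.37 in line 1 and between 0.04 and -0.23 in line 2, lowest where G and C were many. Downward differences of this size thus also occurred on probes without a target. The base composition of the ZIP probes, and of the probes of the other genes named below, was not analysed here.

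SLC39A6 encodes ZIP6 (LIV-1), a plasma membrane zinc importer first known as an oestrogen-regulated gene of breast cancer cells and linked to cell detachment and mitosis. Its brightest probe set, 11757587_s_at, read 668 in the control against 1036 in line 1 and 999 in line 2. Both lines lay above the control, and close to each other. This was 1.55-fold of control in line 1 and 1.496-fold in line 2, so that line 2 missed the size rule by a narrow margin. The mean log2 difference was 0.61 ± 0.04 (SD, n = 2 lines), with a standard error of 0.08 and an adjusted p of 0.0028 in limma, and it ranked 367 of the 22670 probe sets from the top. After cyclic loess normalization or normexp background correction, 1 ZIP probe set, this one, passed the size rule.

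The other probe sets of SLC39A6 lay in the same direction. Probe set 11749546_a_at had 193 in the control against 308 in line 1 and 262 in line 2, with both lines above the control and line 1 the higher. Its mean log2 difference was 0.55 ± 0.16 (SD, n = 2 lines; adjusted p = 0.010 in limma). The dimmest, 11735415_a_at, was below the filter, with 138 in the control against 167 in line 1 and 163 in line 2, and was not among the 22670 tested. Its log2 differences were 0.27 and 0.24. With all probe sets tested regardless of intensity it passed narrowly (adjusted p = 0.0499 in limma). The 3 probe sets were designed on 3 different source sequences. Of the 23 background controls none was more than 0.05 above control on the mean of both lines. The SLC39A6 probe sets that were tested lay at 0.61 and 0.55. Whether background has a part in these differences was not tested.

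The promoter of SLC39A6 is shown beside those of SLC39A1, the member that was called lower, and of MT2A, a metallothionein gene with MTF1 sites. The core of the metal response element bound by MTF1 can be looked for in them. Each line gives the 250 bases before an annotated start, 5′ to 3′ on the gene's strand (RefSeq, GRCh38.p14), with matches to TGCACNC or TGCGCNC on either strand in capitals; matches may overlap.
SLC39A6, chr18:36129341-36129590, minus strand: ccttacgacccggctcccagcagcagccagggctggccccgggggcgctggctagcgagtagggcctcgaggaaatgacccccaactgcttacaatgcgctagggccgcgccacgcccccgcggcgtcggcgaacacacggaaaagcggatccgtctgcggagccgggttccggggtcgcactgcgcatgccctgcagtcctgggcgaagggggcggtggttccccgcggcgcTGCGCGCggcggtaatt
SLC39A1, chr1:153968185-153968434, minus strand: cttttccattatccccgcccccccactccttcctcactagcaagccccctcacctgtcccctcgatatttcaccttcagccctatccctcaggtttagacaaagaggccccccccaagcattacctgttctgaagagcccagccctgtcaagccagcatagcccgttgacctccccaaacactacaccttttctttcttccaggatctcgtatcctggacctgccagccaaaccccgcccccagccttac
SLC39A1, second start, chr1:153963538-153963787, minus strand: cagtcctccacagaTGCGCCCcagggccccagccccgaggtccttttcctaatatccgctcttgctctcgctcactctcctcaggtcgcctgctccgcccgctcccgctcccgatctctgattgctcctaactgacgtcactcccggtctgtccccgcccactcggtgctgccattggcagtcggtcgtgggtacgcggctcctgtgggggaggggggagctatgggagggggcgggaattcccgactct
MT2A, chr16:56608334-56608583, plus strand: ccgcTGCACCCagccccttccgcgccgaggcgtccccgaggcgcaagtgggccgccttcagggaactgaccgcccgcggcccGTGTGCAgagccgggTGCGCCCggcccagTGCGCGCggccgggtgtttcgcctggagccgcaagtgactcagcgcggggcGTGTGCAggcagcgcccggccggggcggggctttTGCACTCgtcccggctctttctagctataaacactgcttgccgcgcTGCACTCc
SLC39A6 held 1 match, the outer and inner starts of SLC39A1 held 0 and 1, and MT2A held 7. Of all 35116 promoter windows of this length 24.8% held at least 1 match and 6.48% at least 2. Of the 14 windows found for 8 of the ZIP genes, 3 held a match, 1 each for SLC39A1, SLC39A6 and SLC39A8. These are matches of letters and not sites of binding. ELP2, which encodes an Elongator subunit and starts beyond the SLC39A6 promoter on the opposite strand, did not pass the test (log2 differences of 0.16 and 0.10, adjusted p = 0.30 in limma with 1 probe set per gene).

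**Figure D1:**
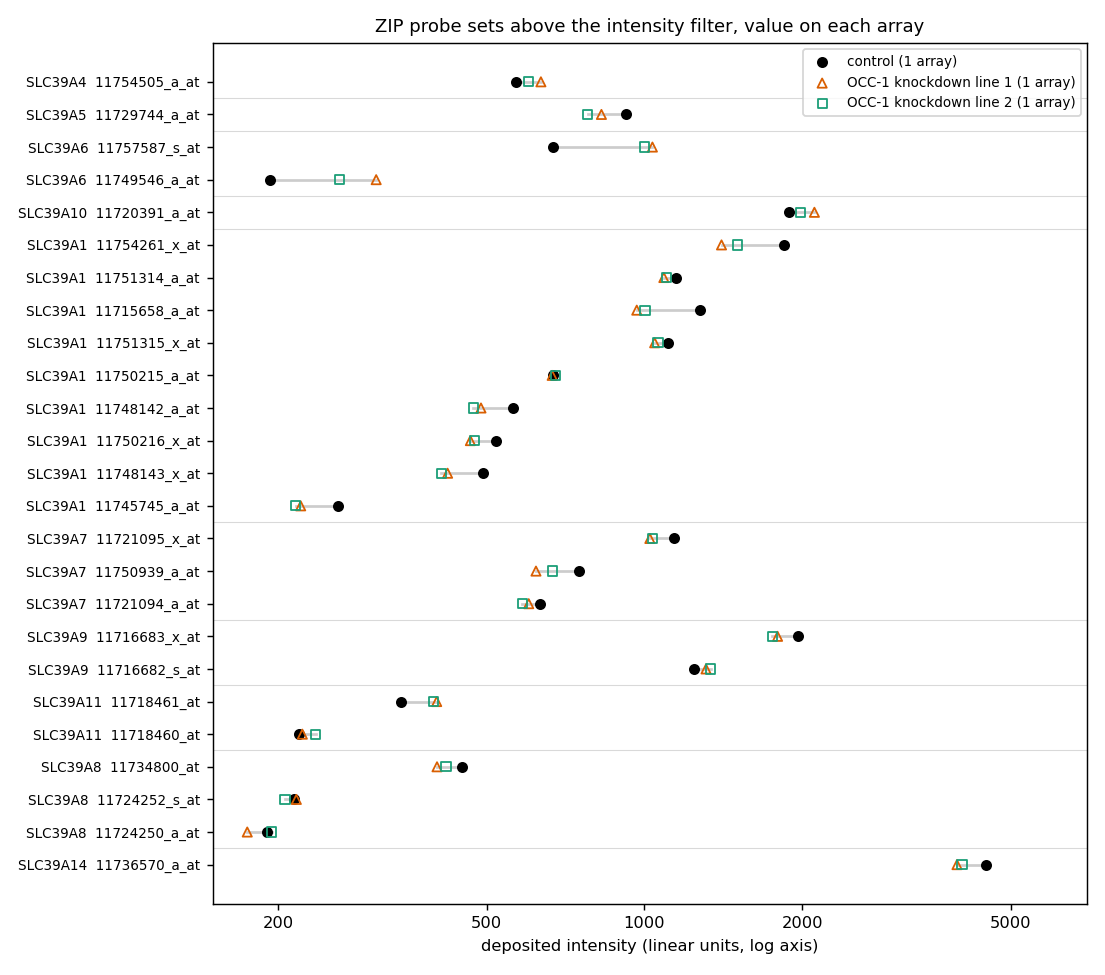
Deposited intensity (linear units on a log axis) of the 25 ZIP probe sets above the filter on the control array (filled circles), line 1 (triangles) and line 2 (squares), ordered by role and gene, with 1 array per marker. The SLC39A6 probe sets have both knockdown arrays above the control by the widest margins, and 8 of the 9 SLC39A1 probe sets have both below it.

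SLC39A10 encodes ZIP10, the closest relative of ZIP6, with which it can form a complex. Its bright probe set, 11720391_a_at, read 1889 in the control against 2110 in line 1 and 1987 in line 2. Both lines were above the control, but by less than the test could separate from the spread of the lines (log2 difference 0.12 ± 0.06, SD, n = 2 lines; adjusted p = 0.36 in limma). Its other 2 probe sets stayed below the filter, between 127 and 139 on every array. Whether SLC39A6 and SLC39A10 differed from each other was not tested.

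The transporters of the enterocyte surface were each read by 1 probe set. SLC39A4, which encodes the dietary zinc importer ZIP4, had 570 in the control against 635 in line 1 and 600 in line 2, a log2 difference of 0.11 ± 0.06 (SD, n = 2 lines; adjusted p = 0.36 in limma). SLC39A5, which encodes ZIP5 of the basolateral membrane, had 924, 828 and 779. For SLC39A4 both lines were above the control and for SLC39A5 both were below it. The difference of SLC39A5, -0.20 ± 0.06 (SD, n = 2 lines), did not pass the test either (adjusted p = 0.13 in limma).

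SLC39A1 encodes ZIP1, a widely expressed zinc importer of the plasma membrane, and was read by 9 probe sets from 6 source sequences, all above the filter. Probe sets from a shared source sequence are not independent readings. On the brightest, 11754261_x_at, the intensity was 1844 in the control against 1403 in line 1 and 1503 in line 2. Both lines lay below the control by more than they differed from each other. The mean log2 difference was -0.34 ± 0.07 (SD, n = 2 lines), with an adjusted p of 0.026 in limma. Probe set 11715658_a_at had 1277 in the control against 967 in line 1 and 1003 in line 2, a difference of -0.38 ± 0.04 (SD, n = 2 lines; adjusted p = 0.016 in limma). On the mean of both lines these were at 78.7% and 77.1% of control.

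The remaining 7 SLC39A1 probe sets did not pass. Their mean log2 differences ran from -0.25 on 11745745_a_at (adjusted p = 0.060 in limma) to 0.01 on 11750215_a_at, which had 669 in the control against 667 in line 1 and 677 in line 2. Across all 9 the median was -0.23 and the range 0.38. Over all 5840 genes with at least 2 probe sets above the filter the median range was 0.18. Among the 14 genes with 9 probe sets above the filter, as SLC39A1 had, it was 0.52. With the mean of all probe sets per gene, SLC39A1 no longer passed (log2 difference -0.19, adjusted p = 0.088 in limma). On the mean of both lines the 2 called probe sets were lower than every background control, the lowest at -0.27. The other 7 lay within the span of those controls. In line 1 the lowest control was at -0.37, close to the -0.39 and -0.40 of the called probe sets. In line 2 it was at -0.23, against -0.30 and -0.35. Whether base composition has a part in these differences was not tested.

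**Figure D2:**
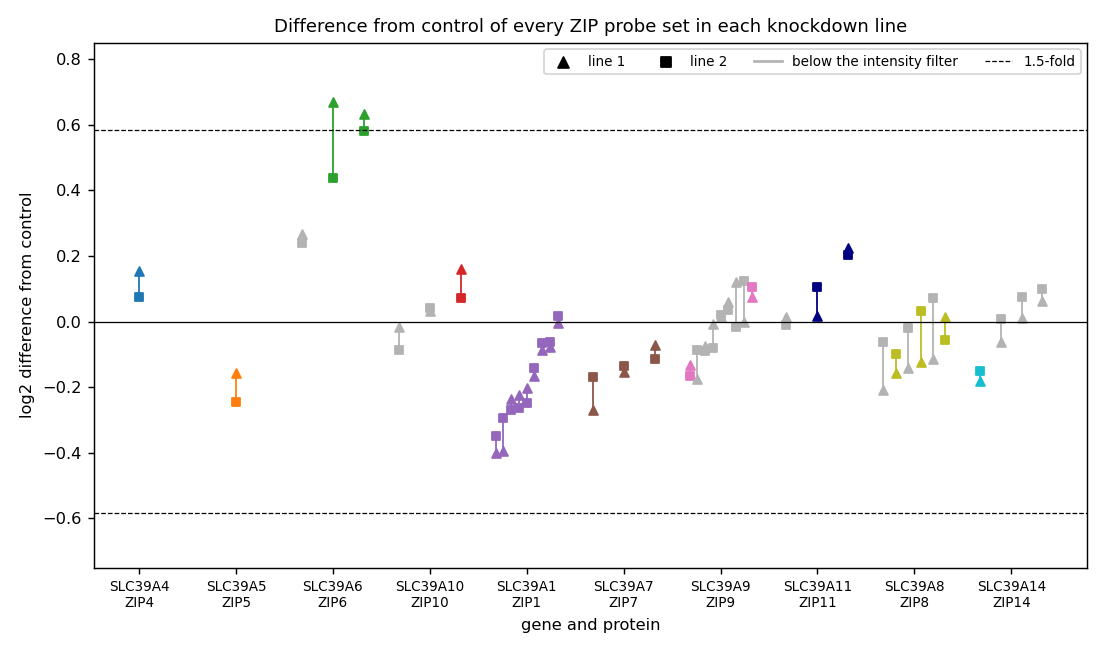
Log2 difference from control of all 42 ZIP probe sets in line 1 (triangles) and line 2 (squares), joined per probe set and grouped by gene, with grey for the 17 below the intensity filter and dashed lines at 1.5-fold. SLC39A6 stands highest, SLC39A1 spreads from -0.40 to about 0, and all other genes lie between -0.27 and 0.23.

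The transporters of internal membranes came next. SLC39A7 encodes ZIP7, which releases zinc from the endoplasmic reticulum. Its brightest probe set, 11721095_x_at, had 1139 in the control against 1024 in line 1 and 1037 in line 2. All 3 of its probe sets were lower in both lines, with mean log2 differences from -0.22 to -0.09, and none passed (adjusted p = 0.11 for the lowest, in limma). The probe sets were from 2 source sequences.

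SLC39A9 encodes ZIP9, found at the Golgi and the plasma membrane and described as a membrane androgen receptor. It had 9 probe sets, of which 2 passed the filter, and these went opposite ways. Probe set 11716683_x_at had 1967 in the control against 1795 in line 1 and 1754 in line 2. Probe set 11716682_s_at, from the same source sequence, had 1244, 1311 and 1339. The mean log2 differences were -0.15 and 0.09, neither passed (adjusted p = 0.22 and 0.45 in limma), and the data thus gave no single direction for this gene. Its 7 dim probe sets, between 89.6 and 188 on all arrays, differed from control by -0.18 to 0.12.

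SLC39A11 encodes ZIP11, a distant member of the family. Probe set 11718461_at had 343 in the control against 402 in line 1 and 396 in line 2. Both lines were higher, by 0.21 ± 0.02 on the log2 scale (SD, n = 2 lines), without passing the test (adjusted p = 0.095 in limma). After SLC39A6 this was the highest difference among the ZIP genes. The gene's other tested probe set, 11718460_at, had 220, 223 and 236 (log2 difference 0.06), and after cyclic loess normalization 11718461_at did pass, at 0.24.

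The importers that also carry iron and manganese did not pass on any probe set. SLC39A14, which encodes ZIP14, was read by 1 bright probe set, 11736570_a_at, with 4474 in the control against 3947 in line 1 and 4033 in line 2. Both lines were lower, by 0.18 and 0.15 on the log2 scale (adjusted p = 0.18 in limma). Its other 3 probe sets stayed below the filter, and their lowest value was 74.0. SLC39A8, which encodes ZIP8, had 448 in the control against 402 in line 1 and 418 in line 2 on its brightest probe set, 11734800_at, a mean log2 difference of -0.13 (adjusted p = 0.30 in limma). Of its other 2 tested probe sets, 11724250_a_at had the control between the lines, at 190 against 175 and 195, and so did 11724252_s_at, at 215 against 217 and 206. Both of these lay near the filter.

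Taken over the 25 probe sets above the filter, the ZIP genes had a median log2 difference of -0.12 in line 1 and -0.10 in line 2, where all 22670 probe sets had -0.01 and -0.02. On the mean of both lines 17 of the 25 were below control, against 54.6% of all, and 8 above. SLC39A1 alone gave 8 of the 17. With 1 probe set per gene, the brightest, 6 of the 10 genes were below control, against 55.8% of 11329 genes. On that scale limma called 1 gene higher (SLC39A6, adjusted p = 0.0064, against 9.63% of all genes) and 1 lower (SLC39A1, adjusted p = 0.037, against 3.06%). The size rule called 0 higher (1.36% of all genes) and 0 lower (0.159%). The 7 LIV-1 genes had a median difference of -0.13, with SLC39A6 the only one called. The 17 probe sets below the filter had a median of 0.00 and none reached 1.5-fold in either line.

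**Figure D3:**
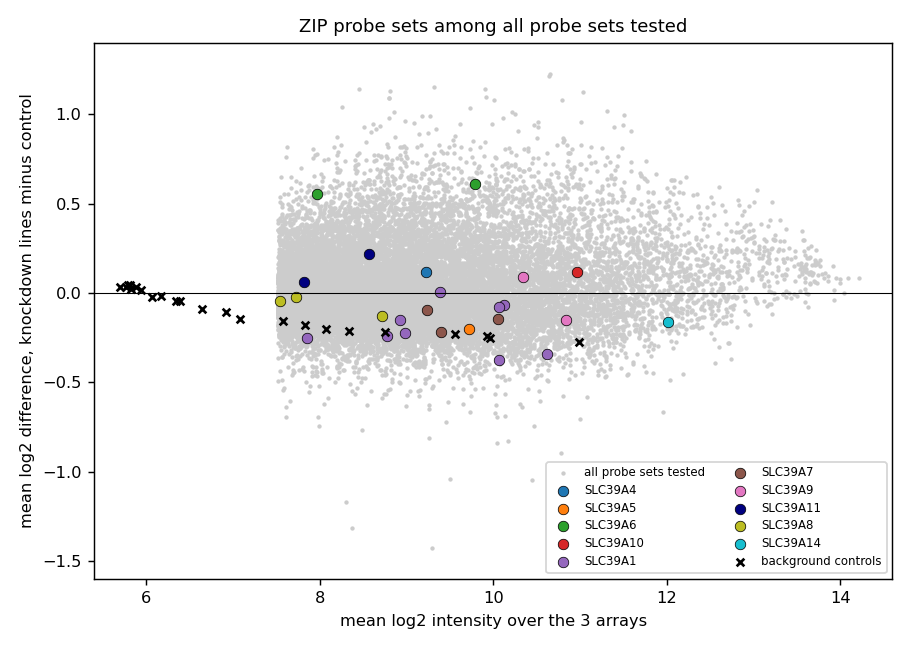
Mean log2 difference of the 2 knockdown lines from control against the mean log2 intensity of the 3 arrays, for all 22670 probe sets tested (grey), the 25 ZIP probe sets (coloured by gene) and the 23 background controls (crosses). The SLC39A6 points lie near the upper edge of the cloud at 0.55 and 0.61, and 16 of the 25 ZIP points fall in the range that the controls cover, from 0.05 to -0.27.

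The lines differed little from each other in ZIP levels. The absolute difference between line 1 and line 2 had a median of 0.05 on the log2 scale over the 25 probe sets, and 0.07 over all probe sets tested. The widest was 0.23, on SLC39A6 probe set 11749546_a_at, with line 1 the higher. Line 1 alone had 2 ZIP probe sets at 1.5-fold or more above control, both of SLC39A6 (2.07% of all probe sets), and line 2 alone had 0 (1.91%).

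The rest of the family was represented by 4 further SLC39 genes, of which 2 passed the filter. SLC39A3, which encodes ZIP3, had 363 in the control against 278 in line 1 and 285 in line 2 on its brightest probe set. Both lines were lower, and the log2 difference of -0.37 passed the test (adjusted p = 0.024 in limma over genes). By line it was -0.38 in line 1 and -0.35 in line 2, where the lowest background controls were at -0.37 and -0.23. Whether base composition has a part in the calls outside the members was not tested. The other tested probe set of SLC39A3, 11726767_at, lay at -0.11 and did not pass. SLC39A13, which encodes ZIP13 of the secretory pathway, had 563, 510 and 488 (log2 difference -0.17, adjusted p = 0.18 in limma over genes) on its brightest probe set. Its dimmer one, 11716430_a_at, had 339, 274 and 258 and did pass over probe sets (-0.35, adjusted p = 0.023 in limma).

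Among the SLC30 exporters 7 of 10 genes passed the filter. In limma 0 were called higher, against 9.63% of all genes, and 0 lower, against 3.06%. At an unadjusted p under 0.05, 1 of the 7 was higher in limma (SLC30A7), against 30.8% of all genes in either direction. Their median log2 difference was 0.06, beside -0.02 over all 11329 genes. SLC30A7, which fills the early secretory pathway with zinc, had 356 in the control against 402 in line 1 and 439 in line 2 (log2 difference 0.24, adjusted p = 0.11 in limma). SLC30A5, which acts in the same compartment, had 472, 513 and 564 (0.19, adjusted p = 0.19), and SLC30A9 had 770, 845 and 808 (0.10, adjusted p = 0.40). These values are of the brightest probe set of each gene by the mean over the arrays. A dimmer one of SLC30A5, 11732282_a_at, had 226, 300 and 289 and did pass over probe sets (0.38, adjusted p = 0.015 in limma). SLC30A5 probe set 11744973_a_at, at 342, 414 and 401, did not pass (0.25, adjusted p = 0.061). Nor did 11732283_x_at, at 481, 503 and 471, with line 2 below control (0.02, adjusted p = 0.91). For SLC30A7, 11722286_a_at had 389, 402 and 399 and did not pass (0.04, adjusted p = 0.59 in limma over probe sets). Alkaline phosphatases, zinc enzymes that are loaded in that pathway, had 4 of 4 genes above the filter and 0 called, with a median of -0.19. ALPI had 453, 389 and 368 (-0.26, adjusted p = 0.074 in limma), ALPP 391, 321 and 345 (-0.23, adjusted p = 0.10) and ALPG 258, 218 and 252 (-0.14, adjusted p = 0.39). A dimmer ALPP probe set, 11723748_at, had 251, 189 and 206 and passed over probe sets (-0.35, adjusted p = 0.028 in limma). ALPI, ALPP and ALPG are close sequence copies whose probes may not separate them.

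Metallothioneins had 6 of 8 genes on the array above the filter. In limma 4 of the 6 were called lower (MT2A, MT1G, MT1F and MT1E), against 3.06% of all genes, and 0 higher, against 9.63%. MT2A had 1550 in the control against 936 in line 1 and 988 in line 2 and was the only zinc handling gene past the size rule. Its other probe set, 11758729_x_at, had 432, 388 and 418 and did not pass (log2 difference -0.10, adjusted p = 0.43 in limma over probe sets). A dimmer MT1F probe set, 11721878_x_at, had 468, 417 and 408 and did not pass either (-0.18, adjusted p = 0.15 in limma over probe sets). For MT1G, 11717385_a_at, at 298, 207 and 225, did pass (-0.46, adjusted p = 0.0093 in limma over probe sets). Metallothionein genes are near-identical in sequence, so that probes may not separate them. Of the genes of zinc sensing and signalling 5 passed the filter and 0 were called. MTF1 had 322, 291 and 305 (log2 difference -0.11, adjusted p = 0.36 in limma). CSNK2B, the regulatory subunit of the kinase CK2 that phosphorylates ZIP7, had 3184, 2847 and 2836 (-0.16, adjusted p = 0.18), and its partner CSNK2A1 had 873, 843 and 844 (-0.05, adjusted p = 0.68). Other metal transporters had 0 of 5 called. The iron and manganese importer SLC11A2 had 1255, 1110 and 1085 (-0.19, adjusted p = 0.13) on its brightest probe set, the copper importer SLC31A1 had 1074, 975 and 972 (-0.14, adjusted p = 0.24), and the iron exporter SLC40A1, at 1050, 944 and 1279, went opposite ways in the lines. Other SLC11A2 probe sets differed: 11764275_s_at, at 465, 366 and 353, passed over probe sets (-0.37, adjusted p = 0.016 in limma), and 11759691_a_at lay at 0.15 without passing.

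**Figure D4:**
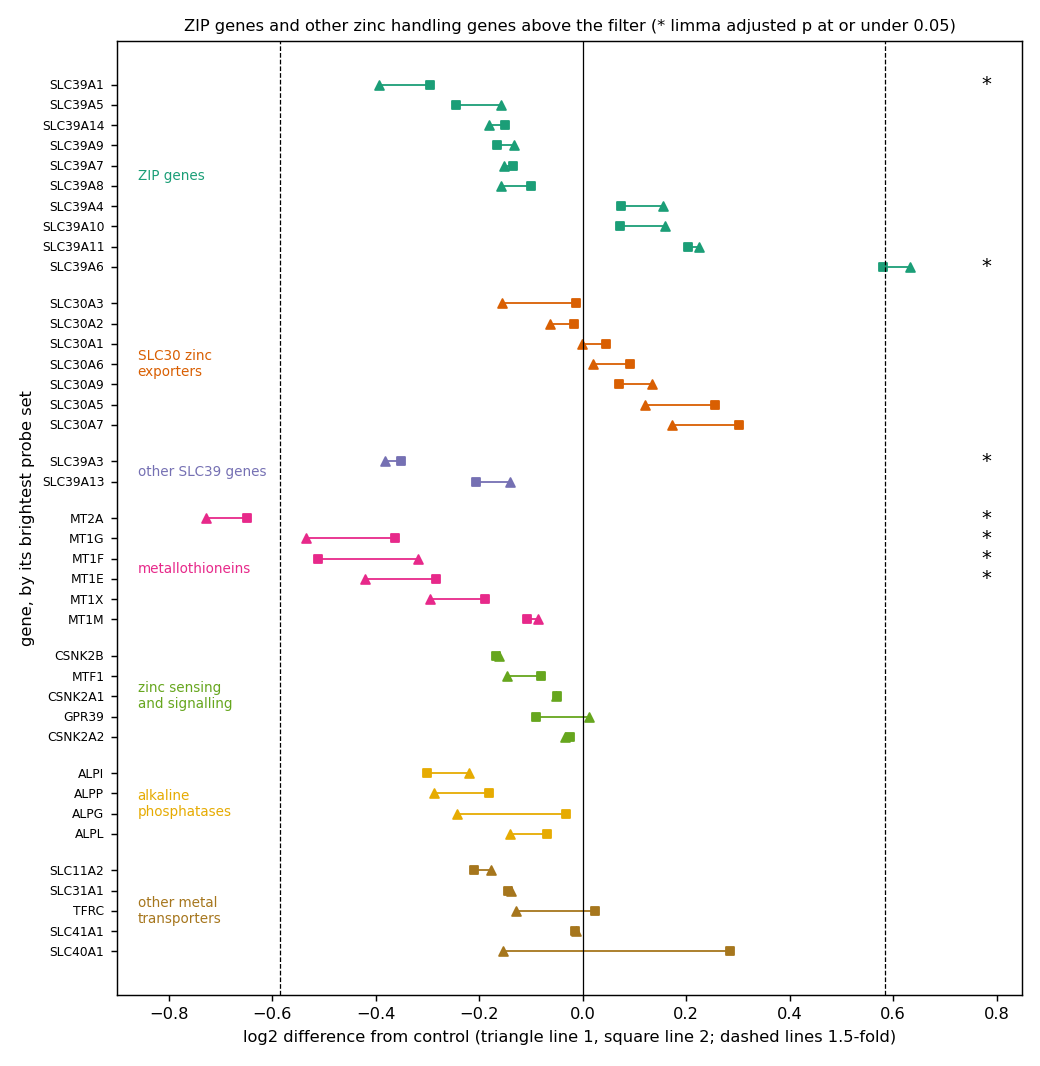
Log2 difference from control in line 1 (triangles) and line 2 (squares) of the 10 ZIP genes and of 29 other zinc and metal handling genes above the filter, each by its brightest probe set and grouped by list, with dashed lines at 1.5-fold and an asterisk where limma's adjusted p was at or under 0.05. SLC39A6 lies to the right of all others, and MT2A lies farthest to the left, with asterisks at 2 ZIP genes, SLC39A3 and 4 metallothioneins.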

How the data were processed

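Total RNA of 3 Caco-2 cultures was measured on 1-colour oligonucleotide arrays, 1 array per culture (control n = 1, OCC-1 knockdown n = 2), grouped by the genotype label. The authors' deposited values give each probe set 1 linear-scale intensity on each array; RMA is named in the submitters' processing notes, with version and settings not given in the sources used here. Background appears to remain in them (the background controls read 51.3 to 2307 in the control), which would make folds smaller than those of transcripts. Values were taken to log2 without further normalization. Gene names came from the platform annotation, checked by gene identifier against RefSeq gene tables (GRCh38.p14): 44988 had 1 symbol, 1832 several, 2473 none, 102 were controls, and 0 symbols changed. A suffix _x_at or _s_at marks probes that may match further transcripts.

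The median filter (log2 7.52) left 22670 probe sets, or 11329 genes by the brightest probe set. limma 3.58.1 (R 4.3.3; lmFit, eBayes, two-sided, Benjamini-Hochberg) had 1 residual degree of freedom, 8.38 after moderation over probe sets, and assumes that the lone control varies like the 2 lines; its p-values reflect the spread of these arrays alone, which may be technical. Fits were run on simulated data in which the control varied like the lines by construction, so that this could not test that assumption.

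Members, lists and tests were chosen with earlier results of these data known. Named were all members, OCC-1, and genes called in each zinc list or else its 3 with the largest absolute mean difference. SLC39A13, the uncalled gene above the filter in the list of SLC39A3, was named outside this rule. So was ELP2 as a neighbour, chosen after its values were seen.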

Additional observations from a re-analysis of the deposited data

How the results depend on the processing

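Directions and calls of the 4 ZIP probe sets that passed limma were kept under quantile, cyclic loess, normexp, both other filters and an intensity trend, with log2 differences of 0.58 to 0.62 and 0.55 to 0.58 for SLC39A6 and -0.41 to -0.37 and -0.40 to -0.34 for SLC39A1, and adjusted p of at most 0.029. Further calls appeared: quantile normalization gave 3 lower (SLC39A1 11748143_x_at added), cyclic loess 3 higher (SLC39A11 11718461_at added), and no filter 3 higher and 3 lower (SLC39A6 11735415_a_at and SLC39A1 11745745_a_at added, both at adjusted p = 0.05). With the brightest probe set of each gene alone, 1 was higher and 1 lower. The count of ZIP probe sets higher by size was 0, but 1 after cyclic loess and 1 after normexp (the same counts by gene), 2 at 1.3-fold, and 0 to 2 with 1 line left out (0 to 1 by gene; without line 2 the higher count). By gene, the mean of all probe sets gave 0 lower in limma, and 0 zinc list genes lower by size against 1 (MT2A). The median over the 25 probe sets was -0.09, and -0.12 after quantile normalization, -0.071 after cyclic loess and -0.10 to -0.12 with 1 line left out. SLC39A1 probe set 11750215_a_at turned from 0.0056 to -0.017 under quantile normalization, and SLC39A8 probe set 11724252_s_at from -0.021 to 0.013 under cyclic loess, neither called; the cause was not tested. Over all probe sets 74.3% of the limma calls were higher, and 63.1% after quantile normalization. limma could not be fitted without 1 line, since no residual degree of freedom remains. No paired analysis was possible because the control has a single array and the labels number only the hairpins. Normalization, trend and left-out lines by gene were added after seeing the data. Signal near the filter limits the dimmer SLC39A8 probe sets and also SLC39A6 probe set 11749546_a_at, at 193 in the control. Having 1 array per line limits all values.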
